A study of Mus musculus with 2 samples.

Results

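The cells described here are 1553 of 13826 cells from mouse somitic gastruloids, picked by their expression of a few epithelial genes: at least 3 of the genes Sfn, Upk1a, Dlx5 and Grhl3 had at least 1 unique molecular identifier (UMI, 1 counted RNA molecule), Krt8 had at least 1, and Sox17 had 0. They are called Sfn/Dlx5 cells below. The untreated library held 233 of them among 6646 cells and the dTAG-13 library 1320 among 7180. All other cells past the same filters (6413 and 5860) served as the comparison.

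Somitic gastruloids are aggregates of mouse embryonic stem cells that elongate and form somites and neural tissue in culture. Both groups came from the E14_triple reporter line with an endogenous Zeb2-HA-FKBP12F36V degron tag, so the controls carry the tagged protein as well. Wells were seeded with 300 cells, CHIR99021, an activator of Wnt signalling, was given at 3 µM after 48 h, and the aggregates were embedded in 10% Matrigel at 96 h. The treated group received 100 nM dTAG-13, a small molecule that sends FKBP12F36V-tagged proteins to the proteasome, at 72 and 96 h. The control is labelled untreated, although the series text names DMSO. Each group is 1 library, made from about 32 pooled gastruloids of 1 line whose live cells were sorted with 7-AAD. No source used here states when the gastruloids were harvested. Since neither group has a replicate library, nothing below is a test of the treatment, and every interval is a 95% interval that covers counting error only.

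Non-neural ectoderm is the outer layer of the embryo that becomes epidermis and placodes. It is first a single-layered epithelium with keratins Krt8 and Krt18, tight junctions and desmosomes, and it is set up by transcription factors of the Grainyhead, Dlx, Tfap2 and Gata families under BMP signalling. Zeb2 is a zinc-finger repressor best known for shutting off epithelial genes such as Cdh1 by binding E-boxes in their promoters. Its RNA is no check of the treatment, since dTAG-13 acts on the protein: Zeb2 was at 50.4 CPM (UMIs of a gene per 1000000 UMIs of the group) in untreated and 80.8 CPM in dTAG-13 Sfn/Dlx5 cells.

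The genes of the rule behaved as the rule demands, and their values are a description. Sfn, an epithelial 14-3-3 protein (chromosome 4, 133600556 to 133602168, GRCm38), was at 187 CPM in untreated and 191 CPM in dTAG-13 Sfn/Dlx5 cells, against 10.3 and 28.2 CPM in other cells. Upk1a, a uroplakin of apical membranes (chromosome 7, 30603092 to 30612847), was at 86.6 and 88.7 CPM against 3.19 and 8.59 CPM. Dlx5, a homeobox gene of the ectodermal border (chromosome 6, 6877805 to 6882085), was at 66.9 and 98.1 CPM against 3.84 and 13.1 CPM. The Grainyhead factor Grhl3 (chromosome 4, 135541888 to 135573630) was at 61.4 and 61.9 CPM against 8.09 and 10.6 CPM. Krt8, a keratin of simple epithelia (chromosome 15, 101996698 to 102004482), was at 314 and 383 CPM against 53.6 and 134 CPM. Other cells of the dTAG-13 library thus held more of each of these RNAs than other cells of the untreated library.

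Many cells lay on both sides of the rule's cut, and whether they form a gradient or a separate group was not tested. In the untreated library 389 cells had 2 of the 4 genes, 165 had 3 and 92 had all 4. In the dTAG-13 library 874 cells had 2, 833 had 3 and 588 had all 4. Cells just outside the rule, with 2 of the 4 genes, Krt8 and no Sox17, numbered 263 and 696. Sfn was at 66.3 CPM in those just outside and at 184 CPM in those just inside (3 of 4) in the untreated library, and at 88.4 and 161 CPM in the dTAG-13 library. Krt8 was at 164 and 283 CPM across the same step in the untreated library and at 245 and 358 CPM in the dTAG-13 library. All 4 genes were seen in 89 untreated and 554 dTAG-13 Sfn/Dlx5 cells. Among the remaining Sfn/Dlx5 cells, the gene not seen was Dlx5 most often in the untreated library (53 cells) and Grhl3 most often in the dTAG-13 library (248 cells). The condition on Sox17 removed 1 untreated and 47 dTAG-13 cells that met the gene rule, and the condition on Krt8 removed 23 and 54.

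A rule of 1 UMI passes cells with more RNA more easily, so shares were also taken after every cell had been thinned at random to 10000 UMIs. Thinning left out 1 untreated and 23 dTAG-13 Sfn/Dlx5 cells that were shallower than that. Sfn was then seen in 65.9% of untreated and 70.6% of dTAG-13 Sfn/Dlx5 cells, against 89.3% and 90.8% without thinning. Shares in unlike cells serve as a background here, and whether it comes from free RNA, doublets or expression was not tested. Dlx5 was seen in 46.6% and 62.1% of thinned Sfn/Dlx5 cells and in 0.397% and 1.79% of cells carrying the naive pluripotency genes Zfp42 and Esrrb, whose unthinned depth was greater (median 27601 and 29221 UMIs). Sfn itself was seen in 21.0% and 21.8% of those Zfp42 Esrrb cells, so that it alone does not mark the Sfn/Dlx5 cells. Median depth was 22522 and 22274.5 UMIs in Sfn/Dlx5 cells and 20476 and 20335 UMIs in other cells, with a median mitochondrial share of 4.68% and 4.69% in Sfn/Dlx5 cells. The libraries shared 14 barcodes, and 0 of these were a Sfn/Dlx5 cell in both.

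Sfn/Dlx5 cells made up 3.51% of the untreated library (exact binomial interval 3.08 to 3.98%) and 18.4% of the dTAG-13 library (17.5 to 19.3%). The difference was 14.9 percentage points (13.9 to 15.9), a ratio of 5.24. After thinning to 10000 UMIs the shares were 1.35% and 9.45%, a ratio of 7.00. Requiring all 4 genes gave 1.34% and 7.72%, and accepting 2 of the 4 gave 7.46% and 28.1%. The dTAG-13 library had the higher share under each of these rules. It was also higher within each of 4 equal bands of cell depth: from 2.51% against 13.4% in cells with at most 16079.2 UMIs to 5.70% against 24.3% in cells over 27742.8 UMIs. Cells with none of the 4 genes numbered 4780 in the untreated and 3303 in the dTAG-13 library. Krt8, Sfn, Upk1a and Dlx5 were also higher in the other cells of the dTAG-13 library, as given above, and what part a general gain in these RNAs has in the share of cells passing the rule was not tested.

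**Figure D1:**
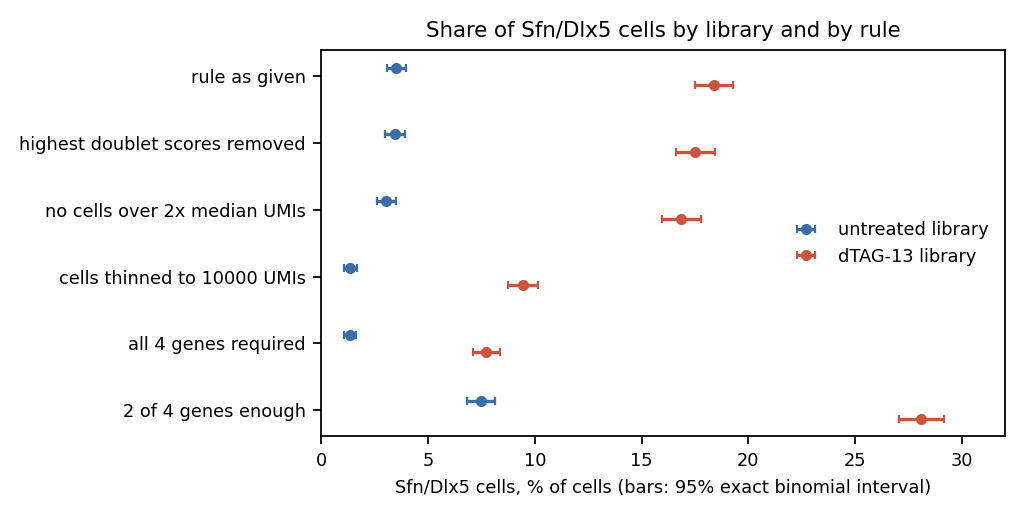
Share of cells that are Sfn/Dlx5 cells (x axis, % of cells past the filters) in the untreated (blue) and dTAG-13 (red) library under 6 forms of the rule (y axis), with exact 95% binomial intervals as bars. In every row the dTAG-13 point lies to the right of the untreated point. The lowest pair is 1.34% against 7.72% with all 4 genes required. The highest pair is 7.46% against 28.1% where 2 of the 4 genes were enough.

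Sfn/Dlx5 cells with far more RNA than usual stand apart and touch several results. Cells over 2 times their library's median UMI count were 48 of the untreated (20.6%) and 204 of the dTAG-13 Sfn/Dlx5 cells (15.5%), against 7.61% and 6.06% of other cells. Barcodes ranked as likely doublets, droplets that may hold more than 1 cell, were 8.15% and 11.4% of Sfn/Dlx5 cells and 6.17% and 5.84% of other cells. With these barcodes removed the shares of Sfn/Dlx5 cells were 3.43% and 17.5%, a ratio of 5.09. The somite gene Meox1 was at 62.0 CPM in these large untreated Sfn/Dlx5 cells and 11.2 CPM in the rest, and at 23.9 and 4.95 CPM in the dTAG-13 library. The pluripotency gene Dppa5a was at 455 CPM in the large dTAG-13 Sfn/Dlx5 cells and 73.3 CPM in the rest, while in the untreated library it was at 96.2 and 152 CPM. Sfn was lower in the large cells, at 118 against 234 CPM and 97.5 against 246 CPM. Values without the large cells are therefore given where they matter, and without them the shares of Sfn/Dlx5 cells were 3.03% and 16.9%.

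The label of non-neural ectoderm was checked against 23 further transcription factors of that tissue. Of these, 11 reached the level of 5 CPM needed to be compared, and 6 were at least 2-fold higher in Sfn/Dlx5 cells than in other cells of both libraries, with 0 lower. Over all genes compared, 118 of 9586 were higher by this measure (1.23%) and 77 were lower (0.803%). Because the cells were picked by expression within this same contrast, the counts describe the selection and test nothing. Tfap2c was at 80.5 CPM in untreated Sfn/Dlx5 cells against 17.3 CPM in other cells, and at 84.9 against 31.9 CPM in the dTAG-13 library. Msx1, a BMP-responsive homeobox gene, was at 132 against 46.4 CPM and 139 against 51.1 CPM. The Grainyhead gene Grhl2 was at 14.1 against 4.13 CPM and 27.5 against 9.74 CPM. Dlx3 (7.14 and 14.0 CPM), Dlx6 (10.2 and 15.3 CPM) and Ovol1 (7.29 and 7.72 CPM) were the other 3, and these reached 5 CPM only in Sfn/Dlx5 cells. The median log2 ratio of the 11 was 1.49 in the untreated and 1.38 in the dTAG-13 library, against 0.01 and 0.00 over all genes compared. Summed over the 23 factors, Sfn/Dlx5 cells held 307 and 361 CPM and all other cells 125 and 175 CPM. The Zfp42 Esrrb cells among those held 248 and 244 CPM, so a raised sum was not particular to Sfn/Dlx5 cells.

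Several defining genes of surface ectoderm were nearly absent. Tfap2a, the main Tfap2 gene of embryonic ectoderm, was at 1.75 CPM in untreated and 2.01 CPM in dTAG-13 Sfn/Dlx5 cells. Gata3 was at 0.292 and 0.826 CPM, below its level in other cells (1.42 and 2.36 CPM). Gata2 had 0 UMIs in untreated Sfn/Dlx5 cells, which allows up to 0.437 CPM, and 0.490 CPM in the dTAG-13 library. Trp63, the master regulator of stratified epidermis, was at 0.146 and 0.542 CPM, and it was seen in 0.431% and 0.540% of thinned Sfn/Dlx5 cells. Krt5 was at 1.02 and 1.37 CPM. Krt14 had 0 UMIs in both libraries, which allows up to 0.437 and 0.0774 CPM, and so did Foxi2. The 14 genes listed for stratified epidermis summed to 33.4 and 36.7 CPM in Sfn/Dlx5 cells and to 30.7 and 27.4 CPM in other cells, with 5 and 2 of them at 0 in Sfn/Dlx5 cells. The markers Tfap2a, Gata2, Gata3 and Trp63 go against the label of non-neural ectoderm, and the cells are called by the genes of the rule for that reason.

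**Figure D2:**
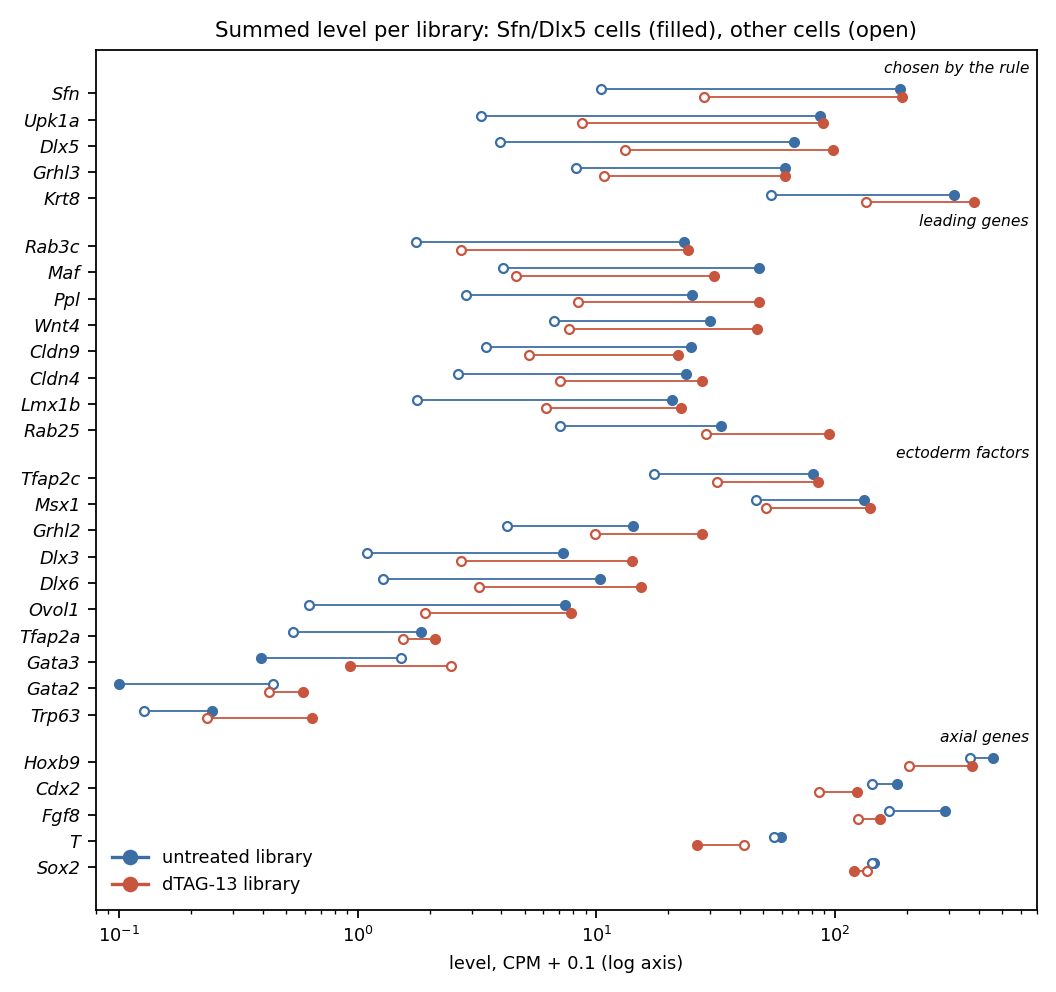
Summed level of named genes (x axis, CPM plus 0.1 on a log scale) in Sfn/Dlx5 cells (filled) and other cells (open) of the untreated (blue) and dTAG-13 (red) library, with a line joining each pair. The genes of the rule and the leading genes are separated by wide gaps, Tfap2a, Gata2, Gata3 and Trp63 sit near the left edge, and the pairs of Cdx2 and Sox2 lie close together.

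Markers of other epithelia and border tissues were read in the same cells. Of the trophoblast genes, Elf5 was at 1.31 and 1.39 CPM, Eomes at 0.292 and 1.45 CPM, and Hand1 at 0.292 and 0.0516 CPM, while Tpbpa, Prl3d1 and Prl2c2 had 0 UMIs in both libraries. Other genes of that list were not low. Tfap2c was higher in Sfn/Dlx5 cells, as given above, and Peg10 was at 124 against 63.2 CPM and 77.5 against 70.9 CPM. Summed over the 18 listed genes, Sfn/Dlx5 cells held 397 and 311 CPM and other cells 246 and 233 CPM. Cdx2, which trophoblast and tail tissue both use, was at 182 and 123 CPM. The neural crest gene Sox10 had 0 UMIs in untreated Sfn/Dlx5 cells, which allows up to 0.437 CPM, and 0.103 CPM in dTAG-13 ones. Pax7, a gene of the neural plate border and crest, was higher in Sfn/Dlx5 cells, at 10.2 against 2.20 CPM and 7.43 against 2.71 CPM. The bladder uroplakins Upk1b (0 and 0.0774 CPM), Upk2 (2.19 and 2.50 CPM), Upk3a (2.48 and 1.65 CPM) and Upk3b (0.292 and 0.490 CPM) were low in Sfn/Dlx5 cells, Upk2 with 0.141 and 0.354 CPM in other cells.

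Posterior axial genes were present in the Sfn/Dlx5 cells, most of them within 2-fold of their level in other cells. Hoxb9, a trunk Hox gene, was at 458 CPM in untreated Sfn/Dlx5 cells and 368 CPM in other cells, and it was seen in 88.4% of thinned Sfn/Dlx5 cells against 63.1% of other cells. In the dTAG-13 library Hoxb9 was at 374 against 204 CPM (74.1% against 37.2% of thinned cells). In cells with Zfp42 and Esrrb the share with Hoxb9 was 14.3% and 8.72%. Sox2, which marks neural and neuromesodermal progenitors, was at 145 and 120 CPM in Sfn/Dlx5 cells and 142 and 136 CPM in other cells. Of 12 Hox genes of paralog groups 5 to 9 that were compared, 0 were 2-fold higher and 0 lower in both libraries, with medians of 0.28 and 0.57. The single gene closest to the bound was Hoxa7, with log2 ratios of 0.91 and 1.22.

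Outside the rule, epithelial genes were higher in Sfn/Dlx5 cells than in all other cells pooled. Among 10 genes of desmosomes and the epithelial barrier, 5 were at least 2-fold higher in both libraries and 0 lower, with median log2 ratios of 1.54 and 1.08. Ppl, the plakin that ties desmosomes to keratin, was at 25.1 CPM in untreated Sfn/Dlx5 cells against 2.75 CPM, and at 47.7 against 8.23 CPM in the dTAG-13 library. Its partner Evpl was at 8.89 against 1.42 CPM and 9.86 against 2.01 CPM. Dsp, desmoplakin, was at 205 against 54.0 CPM and 224 against 77.0 CPM. Dsc2, a desmosomal cadherin, and Lad1, an anchoring-filament protein, completed the 5. Epcam, an epithelial adhesion molecule, was at 511 and 717 CPM against 191 and 438 CPM, past 2-fold in the untreated library only.

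Tight-junction genes followed, with 7 of 16 at least 2-fold higher, 0 lower, and medians of 1.21 and 0.96. Cldn4 was at 23.6 against 2.54 CPM and 27.5 against 6.96 CPM. Cldn9 was at 24.8 against 3.34 CPM and 21.9 against 5.12 CPM. Cldn3, Cldn6, Tjp3, Ocln and Cgn were the other 5. Cldn7 was at 56.7 against 17.0 CPM and 157 against 82.8 CPM, a log2 ratio of 1.68 and 0.92.

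Of 16 genes of polarity, apical trafficking and membrane proteases, 6 were higher and 0 lower, with medians of 1.12 and 0.73. Rab25, a small GTPase of apical recycling, was at 33.2 against 6.93 CPM and 94.0 against 28.8 CPM. Esrp1, the splicing factor that sets epithelial isoforms, was at 67.4 against 11.7 CPM and 86.0 against 29.8 CPM. Prss8, a membrane serine protease, was at 18.2 against 3.21 CPM and 25.7 against 9.12 CPM, and its inhibitor Spint1 was at 43.3 against 11.9 CPM and 54.8 against 19.9 CPM. Krt18, the keratin partner of Krt8, was at 223 against 49.8 CPM and 294 against 133 CPM.

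Epithelial RNA was also high in endoderm-gene cells within that pool. Cells with both Sox17 and Foxa2, genes of endoderm (137 untreated and 247 dTAG-13 cells), held 838 and 781 CPM summed over the barrier list, against 895 and 1182 CPM in Sfn/Dlx5 cells. For the tight-junction list the sums were 610 and 618 CPM against 630 and 815 CPM, and for the polarity list 408 and 423 CPM against 462 and 632 CPM. Simple keratins other than Krt8 summed to 720 and 655 CPM in Sox17 Foxa2 cells and 262 and 351 CPM in Sfn/Dlx5 cells. Rab25 was at 40.8 and 43.8 CPM in Sox17 Foxa2 cells, in the untreated library above its 33.2 CPM in Sfn/Dlx5 cells, and Cldn7 was at 115 and 139 CPM. Ppl (3.79 and 8.36 CPM), Cldn4 (4.66 and 7.18 CPM) and Cldn9 (3.21 and 6.32 CPM) had lower levels in Sox17 Foxa2 cells than in Sfn/Dlx5 cells.

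By the ranking of size, the leading genes outside the rule included Rab3c, Maf, Ppl, Wnt4, Cib2, Cldn9, Gjb5, Cldn4, Arhgap29, Lmx1b and Rab25. Rab3c, a GTPase of secretory vesicles, was at 23.2 against 1.66 CPM and 24.1 against 2.60 CPM. The bZIP factor Maf was at 47.8 against 3.96 CPM and 31.1 against 4.50 CPM. Wnt4, a secreted Wnt ligand, was at 29.7 against 6.52 CPM and 46.9 against 7.55 CPM. The homeobox gene Lmx1b was at 20.7 against 1.67 CPM and 22.6 against 6.02 CPM. Cib2, a calcium-binding protein, was at 39.4 against 9.34 CPM and 48.6 against 12.1 CPM. Arhgap29, a GTPase-activating protein, was at 98.4 against 20.2 CPM and 126 against 36.0 CPM. Each of these 11 stayed past 2-fold in both libraries in 11 of 11 settings tried.

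Genes that were low in Sfn/Dlx5 cells included genes of mesoderm and endoderm. The mesenchymal regulator Twist1 was at 9.04 against 29.6 CPM and 7.82 against 25.4 CPM, and Zeb1, the paralog of Zeb2, at 13.7 against 32.2 CPM and 7.43 against 24.2 CPM. Aldh1a2, the retinoic acid-making enzyme of somites, was at 22.6 against 68.9 CPM and 14.8 against 65.8 CPM. Fst, an activin antagonist, was at 20.8 against 61.7 CPM and 16.1 against 57.3 CPM. The LIM homeobox gene Lhx1 was at 5.83 against 50.1 CPM and 10.4 against 70.0 CPM, and the hormone precursor gene Trh at 8.75 against 119 CPM and 30.2 against 185 CPM. The rule required Sox17 at 0, so every Sox17 Foxa2 cell counted among the other cells. In Sox17 Foxa2 cells Lhx1 was at 498 and 377 CPM and Trh at 2547 and 1420 CPM. What part the rule has in the low values of endoderm genes was not tested. Much of what the Sfn/Dlx5 cells held of Aldh1a2, Fst, Lhx1, Twist1 and Zeb1 RNA was in the large cells. Without them Aldh1a2 was at 3.40 and 3.81 CPM, Fst at 9.48 and 8.03 CPM and Lhx1 at 1.21 and 4.91 CPM. Twist1 was then at 5.35 and 4.87 CPM and Zeb1 at 6.80 and 2.87 CPM. Trh, at 8.99 and 14.7 CPM without the large cells, was lower in the dTAG-13 library only. Of 7 Nodal pathway genes 0 were higher and 5 lower, with medians of -1.93 and -1.12, while 0.803% of all genes compared were lower. Summed over the 9 listed Nodal genes, Sfn/Dlx5 cells held 56.7 and 83.4 CPM and all other cells 132 and 176 CPM. Among those other cells, Sox17 Foxa2 cells held 466 and 465 CPM and Zfp42 Esrrb cells 314 and 315 CPM. Zeb2 was not among the low genes, with log2 ratios of -0.43 and -0.26, and it was seen in 31.0% and 45.1% of thinned Sfn/Dlx5 cells.

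Upstream sequence of 5 of these epithelial genes is shown because Zeb proteins are known to bind the E-box letters CACCTG. Each run is the RefSeq stretch of up to 250 bases before the gene's start on GRCm38.p6, read along the gene and cut where GENCODE M21 places an exon. Capitals mark the E-box letters, which read CAGGTG where they lie on the opposite strand.
Sfn: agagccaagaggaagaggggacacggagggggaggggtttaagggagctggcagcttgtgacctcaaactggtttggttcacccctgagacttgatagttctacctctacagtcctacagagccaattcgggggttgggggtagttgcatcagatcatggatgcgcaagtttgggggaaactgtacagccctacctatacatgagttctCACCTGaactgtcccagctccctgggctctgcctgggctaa
Grhl3: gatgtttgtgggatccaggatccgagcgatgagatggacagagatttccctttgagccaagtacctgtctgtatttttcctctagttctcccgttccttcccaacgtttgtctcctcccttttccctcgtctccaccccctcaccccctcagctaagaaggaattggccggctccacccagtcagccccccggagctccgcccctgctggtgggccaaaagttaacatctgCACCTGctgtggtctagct
Cldn4: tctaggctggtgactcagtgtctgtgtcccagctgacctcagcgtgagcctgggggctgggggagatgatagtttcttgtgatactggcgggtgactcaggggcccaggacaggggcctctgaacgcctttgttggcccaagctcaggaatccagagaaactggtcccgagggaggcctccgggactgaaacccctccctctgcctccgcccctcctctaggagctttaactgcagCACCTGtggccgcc
Epcam: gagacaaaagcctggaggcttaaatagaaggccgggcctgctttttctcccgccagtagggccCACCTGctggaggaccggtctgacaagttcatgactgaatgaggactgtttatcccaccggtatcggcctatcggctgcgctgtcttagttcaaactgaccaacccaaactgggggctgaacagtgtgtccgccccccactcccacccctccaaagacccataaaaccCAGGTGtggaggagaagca
Rab25: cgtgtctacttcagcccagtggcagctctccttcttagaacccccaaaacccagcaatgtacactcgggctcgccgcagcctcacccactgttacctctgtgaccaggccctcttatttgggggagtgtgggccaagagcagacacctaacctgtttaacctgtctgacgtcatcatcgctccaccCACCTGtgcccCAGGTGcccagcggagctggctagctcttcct
The Sfn run covers chr4:133602169-133602418 on the minus strand and holds the letters once, beginning at position -41 from the start. The Grhl3 run (chr4:135573633-135573882, minus strand) holds them at -19, and the Cldn4 run (chr5:134946935-134947184, minus strand) at -14. The Epcam run (chr17:87635729-87635978, plus strand) holds them at -187 and -19. The Rab25 run (chr3:88548301-88548529, minus strand) holds them at -64 and -53. Positions count from the RefSeq start, which for Rab25 lies past the end of the printed run because an exon was cut there. The 5 genes were chosen for print because they hold the letters. In the same 250 bases the windows of Krt8, Wnt4 and Cldn6 and the first of the Arhgap29 windows also hold the letters. The windows of Upk1a, Cldn3, Gjb5, Cib2, Lmx1b and Rab3c do not hold them.

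Over whole windows of 300 bases, 250 before to 50 after a start, the letters stood at 30 of the 71 genes with a window among the 118 higher in Sfn/Dlx5 cells (42.3%). They stood at 14 of 54 genes among the 77 lower ones (25.9%) and at 6098 of 27025 genes with a window in all (22.6%). Among the 9748 genes compared between the libraries, 7760 had a window and 1539 of these held the letters (19.8%). The share among the 9586 genes compared between kinds of cell was not taken. Of the single windows, 20.2% held them. The Grainyhead letters AACCGGTT were in 0 of the 71 genes and in 0.174% of all genes. The Tfap2 letters GCCNNNGGC were in 35.2% of the 71 and in 29.7% of the 7760 genes. Both strands were searched, and a match is a description of letters, not of binding.

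Between the libraries, Sfn/Dlx5 cells were compared with Sfn/Dlx5 cells. Of 9748 genes compared, 211 were at least 1.5-fold higher in dTAG-13 Sfn/Dlx5 cells (2.16%) and 162 at least 1.5-fold lower (1.66%). In other cells 277 (2.84%) and 99 (1.02%) of 9740 genes were past the same bound. Epithelial and early epiblast genes were among the higher ones, and Hox, somite and tail-bud genes among the lower ones. The medians over all genes were 0.00 and 0.02. With the likely doublets removed, 205 genes were higher and 174 lower in Sfn/Dlx5 cells, and Dppa5a went from a ratio of 0.72 to -0.02.

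**Figure D3:**
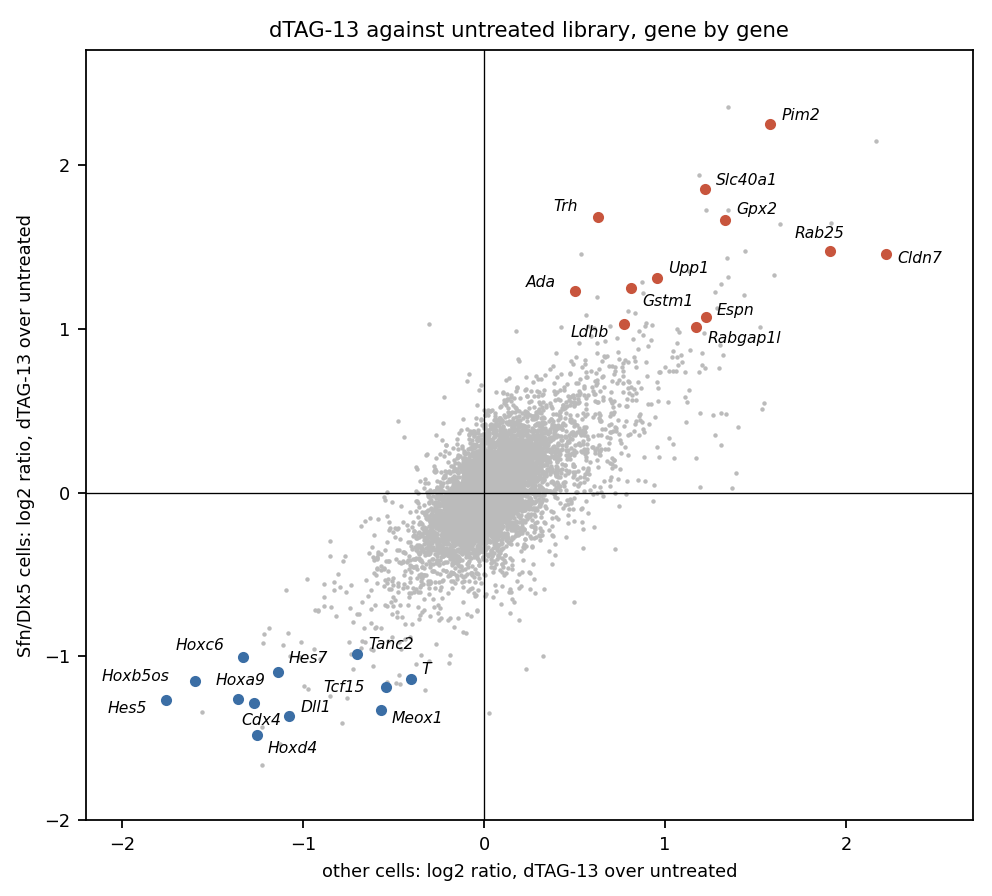
Log2 ratio of dTAG-13 over untreated in other cells (x axis) and in Sfn/Dlx5 cells (y axis). Grey points are the genes compared in Sfn/Dlx5 cells. Labels mark the 12 highest (red) and 12 lowest (blue) ratios of Sfn/Dlx5 cells among genes with 20 CPM or more. Some genes under that level have ratios as large and are not labelled. Cldn7 and Rab25 lie farther along the x axis than along the y axis (2.22 against 1.45 and 1.91 against 1.47), and T, Meox1, Tcf15 and Trh lie nearer 0 along the x axis.

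Cldn7, a claudin of tight junctions, and Rab25 were the junction and trafficking genes among the 12 highest ratios at 20 CPM or more. Cldn7 was at 56.7 CPM in untreated and 157 CPM in dTAG-13 Sfn/Dlx5 cells (log2 ratio 1.45, interval 1.32 to 1.62). Over single cells its median was 48.7 CPM in untreated and 157 CPM in dTAG-13 Sfn/Dlx5 cells, and it was seen in 44.0% and 77.2% of thinned ones. Rab25 went from 33.2 to 94.0 CPM (1.47, interval 1.31 to 1.70) and from 27.6% to 56.9% of thinned Sfn/Dlx5 cells. In other cells the log2 ratios were 2.22 for Cldn7 and 1.91 for Rab25. Without the large cells the ratios in Sfn/Dlx5 cells were 1.22 and 1.30. Both genes thus differed between libraries inside and outside the Sfn/Dlx5 cells.

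Most of the remaining epithelial genes differed less, though Ap1m2 and the keratin gene Krt7, at 1.64 each, did not. In the barrier list 2 of 10 genes were at least 1.5-fold higher in dTAG-13 Sfn/Dlx5 cells (Ppl 0.90 and Jup 0.74) and 0 lower, with a median of 0.33. In the tight-junction list 2 of 16 were higher (Cldn7 and Tjp3 at 0.64) and 1 lower (Cgnl1 at -0.82), with a median of 0.26. Tjp3 had 0.54, under the bound, without the large cells. In the polarity list 3 of 16 were higher (Rab25, Crb3 at 1.01 and Ap1m2 at 1.64), 0 lower, and the median was 0.34. Other cells had medians of 0.65, 0.53 and 0.69 over the same 3 lists, and 5 of 9, 6 of 14 and 9 of 15 genes past the bound upward. Krt18 had a log2 ratio of 0.40 in Sfn/Dlx5 cells and 1.40 in other cells, and Epcam 0.49 and 1.19. Cdh1, E-cadherin, went from 50.9 to 76.7 CPM in Sfn/Dlx5 cells (0.58) and from 17.1 to 38.1 CPM in other cells (1.11). The genes of the rule, which every Sfn/Dlx5 cell had to show in part, had 0.03 (Sfn), 0.03 (Upk1a), 0.54 (Dlx5), 0.01 (Grhl3) and 0.29 (Krt8). Their ratios follow in part from the rule and are given only as a description. Sfn/Dlx5 cells of both libraries had to pass the same rule of epithelial genes, while other cells did not. Other cells also included the cells just outside the rule, 263 untreated and 696 dTAG-13. What part this has in the smaller medians and ratios of the remaining epithelial genes in Sfn/Dlx5 cells was not tested.

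Among ectoderm factors, 3 of 10 were at least 1.5-fold higher and 1 lower, with a median of 0.20. The median in other cells was also 0.20, but over only the 7 factors compared there. Grhl2 went from 14.1 to 27.5 CPM (0.91), Dlx3 from 7.14 to 14.0 CPM (0.88) and Klf5 from 16.8 to 27.3 CPM (0.67). Klf5 had 0.57 without the large cells, just under the bound. Tfap2c (0.08) and Msx1 (0.08) differed little.

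The 12 highest ratios by the ranking belonged to Pim2, Slc40a1, Trh, Gpx2, Rab25, Cldn7, Upp1, Gstm1, Ada, Espn, Ldhb and Rabgap1l. Pim2, a kinase gene of formative pluripotent cells, went from 3.64 to 21.1 CPM (2.25) and was seen in 3.45% and 10.3% of thinned Sfn/Dlx5 cells, against 6.98% and 18.1% of other cells. Its ratio was 1.58 without the large cells and 0.47, under the bound, with cells thinned to 10000 UMIs. The iron exporter gene Slc40a1 went from 6.27 to 25.2 CPM (1.85), and the epithelial glutathione peroxidase gene Gpx2 from 5.98 to 21.1 CPM (1.66). Upp1 and Ada, enzymes of nucleoside breakdown, went from 65.8 to 165 CPM (1.31) and from 14.3 to 34.8 CPM (1.23). Espn, an actin bundler of microvilli, went from 42.7 to 90.9 CPM (1.07), and Ldhb, a lactate dehydrogenase subunit, from 139 to 284 CPM (1.03). For Trh, from 8.75 to 30.2 CPM, the ratio of 1.68 was 0.66 without the large cells. Its level was 56.6 CPM in large dTAG-13 Sfn/Dlx5 cells and 14.7 CPM in the rest.

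Formative and primed pluripotency genes were at least 1.5-fold higher in 7 of 11 and lower in 0, with a median of 0.91 (0.89 in other cells). Otx2 went from 2.92 to 11.9 CPM (1.72), Fgf5 from 2.04 to 5.63 CPM (1.12) and Dnmt3b, the de novo DNA methyltransferase, from 119 to 218 CPM (0.87). Without the large cells these 3 had 1.19, 0.85 and 0.86. Naive pluripotency genes (5 compared, 3 higher, median 0.81) and endoderm genes (5 compared, 4 higher, median 0.76) had medians of -0.32 and -0.25 without the large cells, so that their direction turned. The naive gene Zfp42 was at 65.5 CPM in large dTAG-13 Sfn/Dlx5 cells and 15.7 CPM in the rest.

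Genes of the tail bud and presomitic mesoderm were lower in dTAG-13 Sfn/Dlx5 cells. In the neuromesodermal list 5 of 10 were at least 1.5-fold lower and 0 higher, with a median of -0.71 (-0.49 in other cells). T, the Brachyury factor of the primitive streak and tail bud, went from 59.2 to 26.4 CPM (-1.14), and in other cells from 55.4 to 41.6 CPM (-0.41). Without the large cells its ratio in Sfn/Dlx5 cells was -1.47. Cdx4 went from 44.6 to 17.7 CPM (-1.28), Fgf8 from 288 to 154 CPM (-0.89) and Wnt3a, a ligand of the tail bud, had a ratio of -1.43. Presomitic genes were at least 1.5-fold lower in 6 of 6 (median -1.14, -0.82 in other cells). Among them Meox1 had a ratio of -1.33 and was seen in 10.3% and 4.47% of thinned Sfn/Dlx5 cells, and Tcf15 went from 27.7 to 11.6 CPM (-1.19). Tcf15 was at 47.0 CPM in large untreated Sfn/Dlx5 cells and 14.8 CPM in the rest, and at 21.4 and 5.86 CPM in the dTAG-13 library. Without the large cells the ratios of Meox1 and Tcf15 were -1.03 and -1.21.

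Notch pathway genes were at least 1.5-fold lower in 5 of 11, with 0 higher and a median of -0.52 (-0.50 in other cells). The ligand Dll1 went from 27.0 to 9.86 CPM (-1.36), and the Notch target Hes5 from 29.6 to 11.7 CPM (-1.27). Hes7, the segmentation clock repressor, went from 63.9 to 29.3 CPM (-1.10). Nrarp, a Notch feedback inhibitor, went from 21.1 to 10.8 CPM (-0.91). Dll1, Hes5, Hes7 and Nrarp were low in other cells too (-1.08, -1.76, -1.14 and -1.01).

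Hox genes, which set position along the body axis, were lower in Sfn/Dlx5 cells of the dTAG-13 library. In paralog groups 1 to 4, 9 of 11 genes were at least 1.5-fold lower and 0 higher (median -0.72, -0.85 in other cells), and in groups 5 to 9, 7 of 13 lower and 0 higher (median -0.70, -0.84 in other cells). Hoxd4 went from 31.8 to 10.8 CPM (-1.48), Hoxa9 from 55.0 to 22.4 CPM (-1.26) and Hoxc8 from 141 to 78.9 CPM (-0.83). Hoxb7, Hoxb8 and Hoxb9 had -0.17, -0.16 and -0.29 in Sfn/Dlx5 cells and -0.66, -0.63 and -0.85 in other cells. The difference between the kinds of cell was not tested. Reads of neighbouring and antisense Hox transcripts, such as Hoxb5os (219 to 98.3 CPM, -1.15), cannot be fully told apart, as no source used here states whether the counting used strand.

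**Figure D4:**
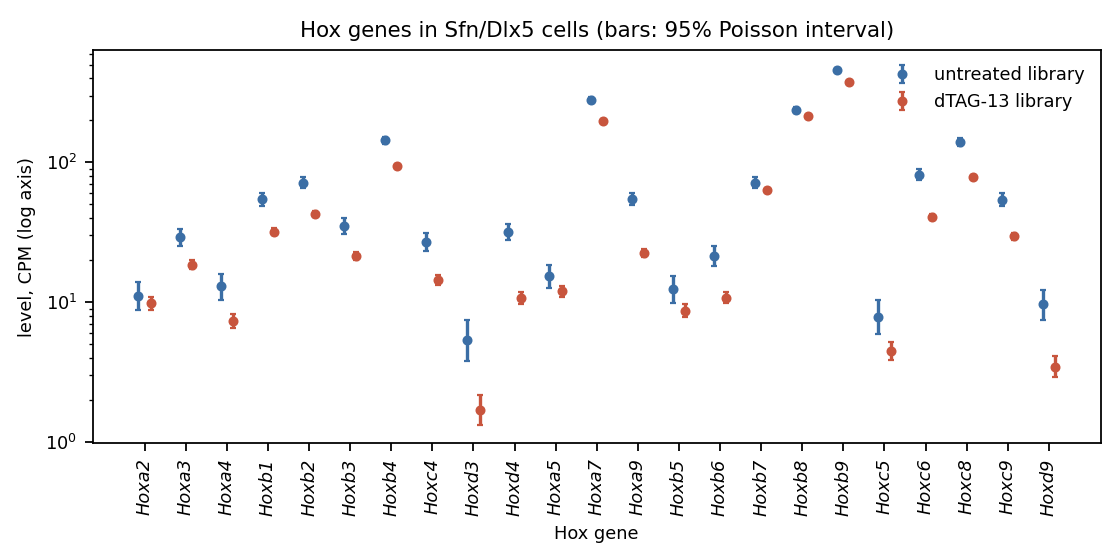
Level of 23 Hox genes (x axis) in Sfn/Dlx5 cells of the untreated (blue) and dTAG-13 (red) library (y axis, CPM on a log scale, bars are exact 95% Poisson intervals). The untreated point is the higher of each pair, with pairs close together for Hoxb7 and Hoxb8 and wide apart for Hoxd4 and Hoxa9.

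Signalling genes of other families were mixed. Of 8 Wnt ligands 2 were at least 1.5-fold higher and 3 lower, with a median of -0.56. Wnt4 went from 29.7 to 46.9 CPM (0.64, interval 0.45 to 0.87) in Sfn/Dlx5 cells, with a ratio of 0.18 in other cells, and Wnt8a from 13.4 to 26.1 CPM (0.91). Wnt3a, Wnt5b (17.6 to 8.93 CPM) and Wnt6 (10.4 to 5.73 CPM) were the lower ones. Of 16 FGF pathway genes 1 was higher (Fgf5) and 6 were lower, with a median of -0.40, among them Dusp4, an ERK phosphatase, from 76.5 to 43.5 CPM (-0.80). BMP receptors and Smads differed little: 0 of 8 were past the bound in either direction, with a median of -0.07. Of 7 BMP target and feedback genes 1 was higher and 0 lower, with a median of 0.13. It was Id3, from 117 to 177 CPM (0.60).

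Mesenchymal genes were at least 1.5-fold lower in 4 of 7 and higher in 1, with a median of -0.59. Vim, vimentin, went from 107 to 70.7 CPM (-0.60) and Cdh2, N-cadherin, from 55.4 to 34.1 CPM (-0.69), while the matrix gene Sparc went from 19.4 to 31.7 CPM (0.68). These 3 had -0.49, -0.57 and 0.48 without the large cells, all inside the bound. Zeb1 went from 13.7 to 7.43 CPM (-0.80, interval -1.22 to -0.53) and was seen in 7.76% and 3.47% of thinned Sfn/Dlx5 cells. Zeb2 RNA went from 50.4 to 80.8 CPM (0.67, interval 0.52 to 0.84), and in other cells from 68.1 to 97.2 CPM (0.51).

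The CACCTG letters in the 300-base windows stood at 64 of 161 genes with a window among the 211 higher in dTAG-13 Sfn/Dlx5 cells (39.8%) and at 22 of 103 among the 162 lower (21.4%), beside 19.8% of compared genes. The Rab25 run printed above has the letters at 2 places, and of the Cldn7 windows the first has none and the other has them at -97 and -57. As with the share between the kinds of cell, these are counts of letters.

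Sfn/Dlx5 cells differed among themselves along an axis of T. After thinning, T was seen in 78 of 232 untreated Sfn/Dlx5 cells (33.6%, 27.6 to 40.1%) and in 192 of 1297 dTAG-13 ones (14.8%, 12.9 to 16.9%). In other cells the shares were 26.5% and 18.9%, and without thinning they were 45.1% and 25.2% in Sfn/Dlx5 cells. This split was chosen after the values were seen, and the cut at 1 UMI of T marks a range and not a type. In cells with Zfp42 and Esrrb the thinned shares with T were 4.76% and 3.85%.

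Sfn/Dlx5 cells with T carried more tail-bud RNA in both libraries. Rspo3, a secreted enhancer of Wnt signalling, was at 399 CPM with T and 82.5 CPM without in the untreated library, and at 339 and 48.9 CPM in the dTAG-13 library. Fgf8 was at 617 against 232 CPM and 427 against 128 CPM. Msx1 was at 235 against 110 CPM and 245 against 144 CPM. Sfn went the other way, at 119 against 281 CPM and 149 against 242 CPM, as did Cldn3 (59.0 against 121 CPM and 85.9 against 136 CPM) and Wnt4 (17.9 against 33.1 CPM and 34.9 against 60.5 CPM). Krt8 (383 against 387 CPM and 434 against 461 CPM), Grhl3 (76.9 against 74.0 CPM and 67.2 against 73.5 CPM) and Hoxb9 (472 against 411 CPM and 387 against 378 CPM) were nearly alike. Arg1, arginase, was at 35.9 against 3.25 CPM and 26.0 against 5.07 CPM. The cornified-envelope gene Sprr2a3 was at 57.7 against 10.4 CPM and 88.0 against 9.41 CPM, with the reserve that near-identical copies of it exist.

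**Figure D5:**
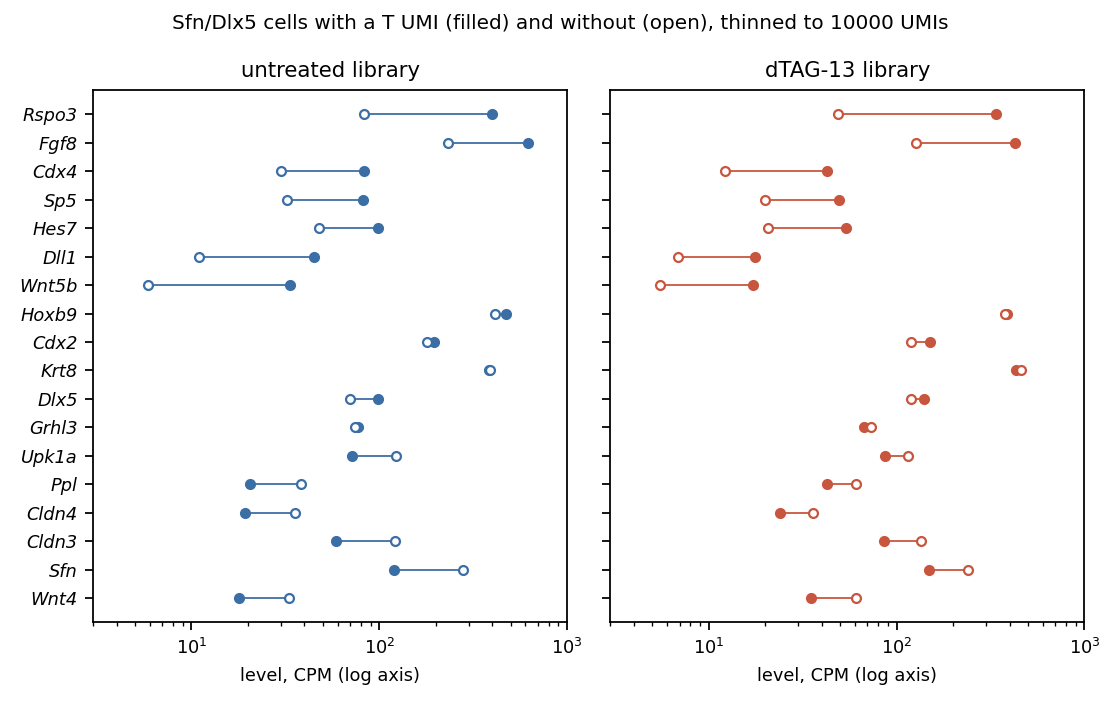
Level of 18 genes (x axis, CPM on a log scale) in Sfn/Dlx5 cells with a T UMI (filled) and without (open), after thinning each cell to 10000 UMIs, in the untreated (left) and dTAG-13 (right) library. Rspo3, Fgf8, Cdx4, Sp5, Hes7, Dll1 and Wnt5b are higher with T in both panels, and Sfn, Cldn3, Cldn4, Ppl, Upk1a and Wnt4 are lower.

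The difference between libraries was read again within each side of this split. With T, the log2 ratio of dTAG-13 over untreated was 1.57 for Cldn7 and 1.64 for Rab25, and without T 1.38 and 1.45. Fgf8 had -0.53 with T and -0.86 without. Cldn7, Rab25 and Fgf8 thus kept their direction on both sides, while the share of Sfn/Dlx5 cells with T differed between the libraries as well.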

How the data were processed

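Single-cell RNA was read with the 10x Genomics 3' v3.1 kit in 2 libraries. The authors deposited counts of UMIs per gene and barcode, whole numbers with no normalization, made with Cell Ranger 6.1.2 on the mm10 build per the submitters' processing notes. The files hold 7276 untreated barcodes (158002807 UMIs) and 7873 dTAG-13 barcodes (176677276 UMIs). Barcodes under 1000 genes or over 10% mitochondrial UMIs were removed (630 and 693). No doublets were removed in the main values. Scrublet, within scanpy 1.11.5, marked 1 and 0 barcodes by its own threshold, which is too few to have worked, so the highest scores (0.8% per 1000 barcodes, 424 and 496 barcodes) were removed as an alternative only.

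The 1553 Sfn/Dlx5 cells follow the rule given above. UMIs were summed per library over Sfn/Dlx5 cells (6859108 and 38742579 UMIs) and over other cells, scaled to CPM, and compared as log2 ratios with a prior of 1 CPM, which understates the ratios of low genes. Genes with at least 5 CPM in either group were compared. Between kinds of cell a gene counted as higher or lower at 2-fold in both libraries, and between libraries at 1.5-fold. Intervals are exact (Poisson for levels, conditional on the total for ratios, Clopper-Pearson for shares) at 95% and describe the 2 counts without the prior, so that at low counts an interval can lie farther from 0 than its ratio. A count of 0 allows up to 3 counts. UMIs of 1 cell are not replicates, and intervals cover counting error only. Named genes were the 12 highest and 12 lowest ratios at 20 CPM or more, leaving out predicted genes (1 passed over in each direction between libraries, 0 between kinds of cell), and up to 4 per list from 40 lists of 444 genes. A few genes that fall under these rules are not reported here. The Sfn/Dlx5 cells, the lists and the rules were chosen with earlier results of these data known. Gene identifiers matched GENCODE M21 for 32235 of 32285. Upstream windows are from RefSeq (GRCm38.p6), and Dlx5, Ppl, Cldn9, Maf, Slc40a1 and Cdh1 had no window in the table used. Scripts ran on Python 3.11.15 and R 4.3.3 with edgeR 4.0.16 (TMM factors) and DESeq2 1.42.0 (size factors), used for scaling alternatives only, and were tested on simulated data. Other alternatives were thinning, the form of the rule, the prior and the level filter. Leaving out cells over 2 times the median UMIs or cells with T, and taking as other cells those with none of the 4 genes, were added after seeing the data.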

Additional observations from a re-analysis of the deposited data

Results flagged for a closer look

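Many genes differed between the libraries in opposite directions in Sfn/Dlx5 cells and in other cells, with both counting intervals clear of 0. Most had small ratios, their share of all genes compared was not taken, and some of the listed ones are given here. The difference itself was not tested, since each group is 1 library. Lefty2, a Nodal antagonist, had a log2 ratio of 1.03 in Sfn/Dlx5 cells (5.69 to 12.6 CPM) and -0.30 in other cells (26.5 to 21.2 CPM), and 0.86 in Sfn/Dlx5 cells without those over 2 times the median UMIs. Peg10, an imprinted gene of placenta, had -0.67 (124 to 77.5 CPM) against 0.17 (63.2 to 70.9 CPM), and -0.61 without the large cells. Wnt3 had -0.58 (10.5 to 6.69 CPM) against 0.19 (6.91 to 8.05 CPM). The polarity gene Pard6b had -0.44 against 0.16, the recycling adaptor Rab11fip1 -0.28 against 0.13, and the desmosomal plakophilin Pkp2 -0.24 against 0.18. Without the large cells these 3 had -0.16, -0.19 and -0.27. The ratios of Wnt3, Pard6b, Rab11fip1 and Pkp2 in Sfn/Dlx5 cells, and all those given for other cells, were inside the 1.5-fold bound.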

How the results depend on the processing

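The higher share of Sfn/Dlx5 cells in the dTAG-13 library kept its direction under the 10 alternatives run. From 14.9 points it moved to 8.10 and 2.49 with cells thinned to 10000 and 5000 UMIs, 6.38 with all 4 genes, 20.6 with 2 of 4, 16.5 at no more than 5% mitochondrial UMIs and 13.8 without cells over 2 times the median UMIs. Counts of genes moved more. Between kinds of cell, 118 higher and 77 lower became 227 and 226 with thinning to 5000 UMIs, 64 and 33 with a prior of 5 CPM and 55 and 22 with a 20 CPM filter, and the lower count was 154 with thinning to 10000 UMIs and 126 without large cells. Between libraries, 211 higher and 162 lower became 956 and 656 with thinning to 10000 UMIs, 2381 and 2325 with thinning to 5000 UMIs, which leaves 37 untreated cells, 410 and 310 with all 4 genes, 90 and 74 with a prior of 5 CPM, 498 and 337 with no filter, 65 and 54 with a 20 CPM filter, and 600 and 395 in cells without T. Fewer UMIs enter the thinned, 4-gene and T settings. The setting without T also used cells thinned to 10000 UMIs, so its values mix thinning with the removal of cells with T. Thinning to 5000 UMIs turned Cdx4 (0.54), Tcf15 (1.51) and the mesenchymal median (0.39). The naive median turned without large cells (-0.32) and without T (-0.29), the endoderm median without large cells (-0.25) and with thinning to 10000 UMIs (-0.20), and the Nodal median without T (-0.21). The cause was not tested. Of 330 recomputed ratios of named genes between libraries, 228 stayed in range, 100 moved and 2 turned. Of 580 between kinds of cell, 259 stayed in range, 321 moved and 0 turned. TMM and DESeq2 scaling left the median of all genes within 0.02 of 0. No paired analysis was possible because each group is 1 library. Depth limits the untreated Sfn/Dlx5 cells most: 0 UMIs of a gene allow up to 0.437 CPM there and 0.0774 CPM in the dTAG-13 ones, and a share of 0 in thinned cells allows up to 1.29% and 0.231%.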

Other observations

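Cell-cycle genes were alike in Sfn/Dlx5 cells and other cells. Of 16 S-phase genes and 16 G2/M genes, 0 were 2-fold higher or lower between kinds of cell in both libraries, and 0 were 1.5-fold apart between the libraries in Sfn/Dlx5 cells, with medians of -0.09 and 0.13. Genes of the p53 response behaved likewise, with 0 of 9 past 1.5-fold and a median of 0.06.

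Retinoic acid genes differed in part. Crabp2, a retinoic acid carrier, went from 121 to 61.9 CPM between the libraries in Sfn/Dlx5 cells (-0.95) and from 124 to 64.2 CPM in other cells (-0.94). Crabp1 went from 168 to 125 CPM in Sfn/Dlx5 cells (-0.42), and from 213 to 220 CPM in other cells (0.04). Aldh1a2 had -0.58 in Sfn/Dlx5 cells, 0.13 without the large cells and -1.11 with the likely doublets removed. Of the 7 genes compared, 1 was past 1.5-fold downward and 0 upward, with a median of -0.42 (-0.07 in other cells).

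Krt7 and Krt19, keratins outside the rule, were not 2-fold higher in Sfn/Dlx5 cells of both libraries. Krt7 was at 4.52 and 16.2 CPM in Sfn/Dlx5 cells and 5.89 and 20.4 CPM in other cells, with the same log2 ratio of 1.64 between libraries in both. Krt19 was at 34.1 and 39.6 CPM in Sfn/Dlx5 cells and 14.0 and 29.9 CPM in other cells, past 2-fold in the untreated library only (log2 ratio 1.23). Among barcodes removed by the filters, 2 of 630 untreated (0.317%) and 7 of 693 dTAG-13 (1.01%) met the gene part of the rule, at a median of 1804.5 and 1982 UMIs over all removed barcodes.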
